A study of Homo sapiens with 6 samples.

Results

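The apolipoprotein L genes are the rows named APOL1 to APOL6 in a table of 20036 genes measured by RNA sequencing in PANC-1 cells, which are a line grown from a human pancreatic carcinoma, and all 6 of 6 names were found. Of the 6 libraries, 3 came from cells given a null control virus (called control) and 3 from cells given a lentivirus that knocks down SHMT2, the mitochondrial serine hydroxymethyltransferase (called knockdown). The labels give no time after infection, no shRNA sequence and no statement on whether replicates were separate cultures, so the errors and p-values below measure no more than how these libraries varied, and that variation may be technical. All groups share the cell line and carry a virus, and uninfected cells were not analysed here. The family was selected on the higher APOL6 counts in the knockdown than in the control libraries, so the members' values in this comparison are given as a description and without p-values.

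Apolipoproteins L are a family of lipid-binding proteins found in primates in several neighbouring copies. APOL1 is the secreted member, which circulates on high-density lipoprotein and lyses trypanosomes, whereas the other members lack a signal for secretion and act inside cells on membranes. Several members are known as genes induced by interferon and by tumour necrosis factor. APOL3 permeabilises the membranes of bacteria in the cytosol together with guanylate-binding proteins, and APOL6 carries a BH3-like region and can trigger mitochondrial apoptosis when overexpressed.

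Library totals ran from 15405884 to 19075734 counts, of which the 6 genes took 292 to 302 in the control and 1140 to 1459 in the knockdown libraries. SHMT2, the targeted gene, was counted 2113, 2284 and 2417 times in the control libraries and 139, 56 and 101 times in the knockdown libraries. These and all later lists of 3 values follow the replicate numbers. Each group held a library unlike its fellows, replicate 1 among the controls and replicate 2 among the knockdowns. Genes differed by a median of 0.0835 on the log2 scale between the remaining controls and 0.0752 between the remaining knockdowns, but by 0.196 to 0.236 from these libraries to the rest of their group. The 13 mitochondrially encoded genes took 10.4% of the counts of knockdown replicate 2 and 4.72% to 6.86% elsewhere. Of 10 ductal epithelial markers, KRT8, KRT18 and SOX9 were abundant in both groups and CFTR had 0 counts in every library. In edgeR 4 of the 8 tested ductal markers rose and 2 fell: EPCAM by 1.38 (adjusted p = 0.000172) and SOX9 by 0.39 on the log2 scale (adjusted p = 0.03), while KRT19, among those that rose, had 7 counts in the 3 control libraries against 3941 in the knockdown libraries.

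All 6 genes lie on chromosome 22. Positions are those of the table, and the starts and ends it gives for APOL4 and APOL5 are the same as in GENCODE 29 on GRCh38. APOL6 (ENSG00000221963) spans 35648446 to 35668404 on the plus strand, and APOL5 (ENSG00000128313) follows it at 35717872 to 35729483, also on the plus strand. The other 4 genes sit in a cluster of 127 kb. APOL3 (ENSG00000128284) at 36140329 to 36166177, APOL4 (ENSG00000100336) at 36189124 to 36204840 and APOL2 (ENSG00000128335) at 36226209 to 36239954 are on the minus strand, and APOL1 (ENSG00000100342) at 36253071 to 36267530 is on the plus strand. The starts of APOL2 and APOL1 face away from each other across 13.1 kb, and 472 kb separate the end of APOL6 from the cluster.

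Reads of these genes can be told apart in most of their length. The members share exon bases with no other gene of GENCODE 29 on either strand, so the unstated strand setting of the counting does not bear on them. No stretch of 100 bases in any annotated APOL transcript occurred in a transcript of another gene. At 50 bases, 0.417% of the stretches of APOL6, 1.91% of APOL2, 3.94% of APOL1 and 0.14% of APOL3 occurred elsewhere, mostly outside the family for APOL6, APOL2 and APOL1. The longest run identical between members was 58 bases, found between APOL1 and APOL2 and again between APOL1 and APOL3, while APOL6 shared at most 30 bases with another member. How the authors treated reads that match several genes is not given in the sources used here.

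APOL6 gained the most counts of the family. The control libraries had 43, 43 and 40 counts and the knockdown libraries 864, 722 and 794. As CPM, that is counts relative to the TMM-adjusted library total, the levels were 2.71, 2.87 and 2.53 against 42.9, 44.1 and 41.1 CPM. The control libraries were all low and the knockdown libraries all high, with no value between 2.87 and 41.1 CPM. The means were 2.70 ± 0.171 and 42.7 ± 1.5 CPM (SD, n = 3 per group), so the spread was 6.32% of the mean in the control and 3.52% in the knockdown libraries. The fitted log2 fold change was 3.98 (SE 0.12), a 15.8-fold difference, and 0.675% of the 12292 tested genes had a larger one. These are the values that led to the choice of the family. Without the unlike library of each group the log2 fold change was 3.96. In bulk libraries, more RNA per cell and more cells that express a gene cannot be told apart, here and for every gene below.

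**Figure D1:**
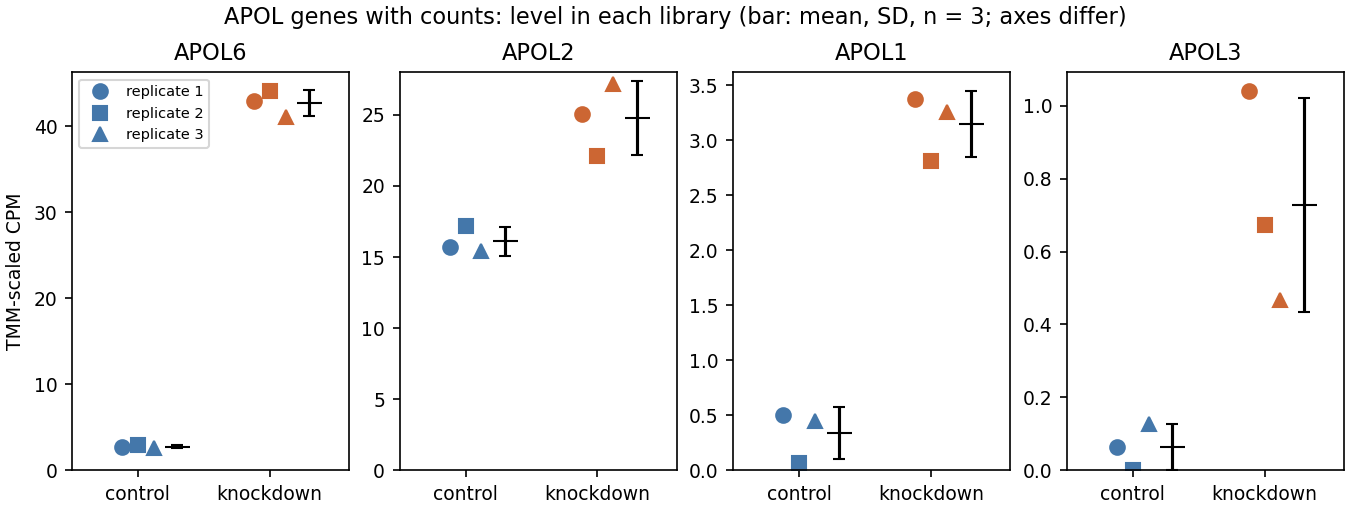
TMM-scaled CPM (vertical axes, which differ between panels and start at 0) of APOL6, APOL2, APOL1 and APOL3 in control (blue) and knockdown (orange) libraries, with the replicate shown by the symbol and the mean and SD of 3 libraries by the black bar. The groups do not overlap in any of the 4 panels, and APOL6 runs from 2.53 to 2.87 CPM in the control and from 41.1 to 44.1 CPM in the knockdown libraries.

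APOL2, an intracellular member found on endoplasmic reticulum membranes, was the best expressed of the family in control cells. Its counts were 249, 258 and 243 in the control and 506, 361 and 525 in the knockdown libraries. The levels were 15.7, 17.2 and 15.4 CPM against 25.1, 22.1 and 27.2 CPM. Every knockdown library was higher than every control library, but the gap was narrow and knockdown replicate 2 was the lowest of its group. The log2 fold change was 0.62 (SE 0.12), or 1.54-fold, and 19.3% of tested genes had a larger one. Without the unlike library of each group it was 0.69.

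APOL1, the secreted trypanolytic member, was close to the limit of detection in control cells. The control libraries had 8, 1 and 7 counts and the knockdown libraries 68, 46 and 63, which corresponds to 0.504, 0.0668 and 0.443 CPM against 3.38, 2.81 and 3.26 CPM. The groups did not overlap. The SD was 9.54% of the mean in the knockdown libraries but 70.1% in the control libraries, where replicate 2 was far below the others. The log2 fold change was 3.18 (SE 0.40). From the summed counts, 16 against 177, the ratio scaled by the TMM-adjusted totals was 9.25 with an exact 95% interval of 5.54 to 16.5, which covers counting error only. Leaving out control replicate 2, the library with 1 count, gave the lowest log2 fold change of the count-based fits, 2.71.

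APOL3, which acts on bacterial membranes, was rarely counted. Its counts were 1, 0 and 2 in the control and 21, 11 and 9 in the knockdown libraries. All 3 knockdown libraries were above all 3 control libraries, though none exceeded 1.04 CPM. The gene fell short of the filter on low counts and was not tested with all 6 libraries. The summed counts of 3 and 41 give a scaled ratio of 11.4, with an exact 95% counting interval of 3.65 to 57.7. In a fit without any filter its log2 fold change was 3.36 (SE 0.74). It also passed the filter when control replicate 1, 2 or 3 or knockdown replicate 3 was left out, through its knockdown libraries alone. The log2 fold changes were then 3.35, 2.85, 4.22 and 3.61. APOL3 was called higher in each of these 5 fits, the unfiltered fit included. As entry to the filtered fits depended on its higher knockdown counts, nothing is read from the calls in them. The order of APOL3 and APOL6 by fold change is not resolved, since APOL6 stood at 3.93 where APOL3 stood at 4.22.

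APOL4 and APOL5 were not detected. Both had 0 counts in each of the 6 libraries, where a count of 0 allows a level of up to 0.200 CPM in the shallowest and 0.149 CPM in the deepest library. Taken over the 3 libraries of a group, the limit is 0.0643 CPM in control and 0.0538 CPM in knockdown cells. No change in these genes can be seen at this depth.

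Of the 6 genes, 3 passed the filter and 3 did not. APOL1 passed only through its knockdown libraries, being under the filter's 0.604 CPM in the control libraries, so it could be tested only because it was higher there. All 3 tested members passed an adjusted p of 0.05 in edgeR as higher, where 26.7% of all tested genes were called higher and 25.1% lower. Of the 618 tested genes that, like APOL1, were below the filter in the control libraries, 53.4% were called higher and 0 lower. The groups did not overlap in 4 of the 6 members, with the knockdown libraries higher. These were the 3 tested members and APOL3, which was not tested. The same was true of 31.3% of tested genes (61.4% in either direction). The choice of the family used this contrast, so nothing is read from these shares.

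Levels of different genes are compared per kilobase of the gene length in the table. In control cells the order was APOL2 at 4.71 ± 0.292, APOL6 at 0.269 ± 0.0170, APOL1 at 0.0977 ± 0.0684 and APOL3 at 0.0107 ± 0.0107 CPM per kilobase (SD, n = 3). The ranges of APOL1 (0.0193 to 0.146) and APOL3 (0 to 0.0214) overlapped, so their order is not resolved there. In knockdown cells the order was the same, with APOL2 at 7.26 ± 0.757, APOL6 at 4.24 ± 0.149, APOL1 at 0.911 ± 0.0869 and APOL3 at 0.123 ± 0.0496, and no neighbouring ranges overlapped. APOL2 therefore stayed above APOL6 per length, although APOL6 had more counts than APOL2 in every knockdown library since its gene length in the table is 10065 bases against 3417 for APOL2. Among the 16463 genes with a count in any library, APOL6 moved from above 30.6% of them in control cells to above 58.8% in knockdown cells, APOL1 from 24.0% to 38.2%, APOL3 from 11.1% to 24.2% and APOL2 from 61.8% to 69.5%.

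The make-up of the family changed as well as its size. The summed level per kilobase was 5.09 ± 0.233 in control and 12.5 ± 0.684 in knockdown libraries (SD, n = 3), a ratio of 2.46. APOL2 made up 91.5%, 94.3% and 91.8% of it in the control and 57.6%, 54.9% and 60.9% in the knockdown libraries. The share of APOL6 was 5.37%, 5.34% and 5.13% in the control and 33.4%, 37.3% and 31.3% in the knockdown libraries, and that of APOL1 was 0.361% to 2.91% and 6.91% to 7.65%. Knockdown replicate 2 had the lowest APOL2 and the highest APOL6 of its group, so its APOL6 level, at 67.9% of that of APOL2, was above the 58.0% and 51.3% of replicates 1 and 3. In the control libraries this ratio was 5.59% to 5.86%. Of the difference in summed level per kilobase between the groups, APOL6 accounted for 53.4%, APOL2 for 34.2%, APOL1 for 10.9% and APOL3 for 1.51%. In CPM, which weights long genes more, the summed level was 19.2 ± 0.876 and 71.4 ± 1.53 (SD, n = 3), a ratio of 3.72, and APOL6 accounted for 76.7% and APOL2 for 16.7% of the difference.

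**Figure D2:**
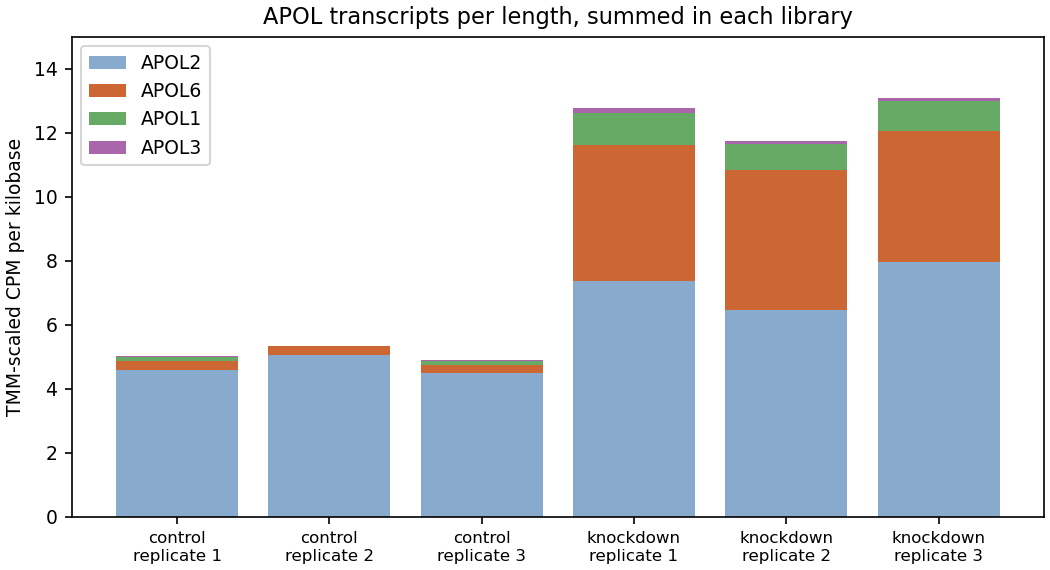
TMM-scaled CPM per kilobase (vertical axis) of the 4 detected APOL genes stacked in each of the 6 libraries (horizontal axis). APOL2 fills 91.5% to 94.3% of the control bars and 54.9% to 60.9% of the knockdown bars, which are taller, and APOL6 fills most of the remainder.

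The higher values of the members were not shared by every gene around them. Of 13 other genes between APOL6 and APOL1 or within 500 kb of that span, 12 were tested, 3 rose and 4 fell in edgeR (58.3% called, where 51.8% of all tested genes were called in either direction), with a median log2 fold change of -0.14 against 0.0 over all tested genes. RBFOX2, a splicing factor that fills much of the interval between APOL5 and APOL3, stood at 199 ± 14.4 and 186 ± 5.24 CPM (log2 fold change -0.10, SE 0.09, adjusted p = 0.361), and its groups overlapped. MYH9, the non-muscle myosin heavy chain next to APOL1, changed by -0.14 (SE 0.11, adjusted p = 0.32), and by -0.27 without knockdown replicate 2, where it was called lower (adjusted p = 0.0132, edgeR). The members that were higher in knockdown cells thus lie on either side of RBFOX2 and up to MYH9, neither of which was called with all 6 libraries.

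On the other side of APOL6 both nearest neighbours rose. MB, the myoglobin gene, whose span ends closest to the start of APOL6, had 7, 7 and 6 counts in the control and 87, 59 and 121 in the knockdown libraries. It rose by 3.45 on the log2 scale (SE 0.32, adjusted p = 0.000158 in edgeR). RASD2, a small Ras-like GTPase and the next gene beyond it, had 25, 15 and 25 counts in the control and 267, 250 and 264 in the knockdown libraries, a log2 fold change of 3.33 (SE 0.19, adjusted p = 2.02e-05, edgeR). MB and APOL1 passed the filter only through their knockdown libraries, whereas RASD2 and APOL6 were above it in the control libraries as well. Beyond RASD2 the replication helicase subunit MCM5 fell by 1.08 on the log2 scale (SE 0.08, adjusted p = 6.35e-05), and heme oxygenase HMOX1 was not called (0.33, adjusted p = 0.0688). The calls of RASD2, MB, MCM5 and IFT27 held in all 16 alternatives. The count of 7 called neighbours was 4 without control replicate 2, without control replicate 3 or without knockdown replicate 1. It was 10 without knockdown replicate 2 and 11 when control replicate 1 was left out with it. Calls over all tested genes rose as well in that last fit.

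**Figure D3:**
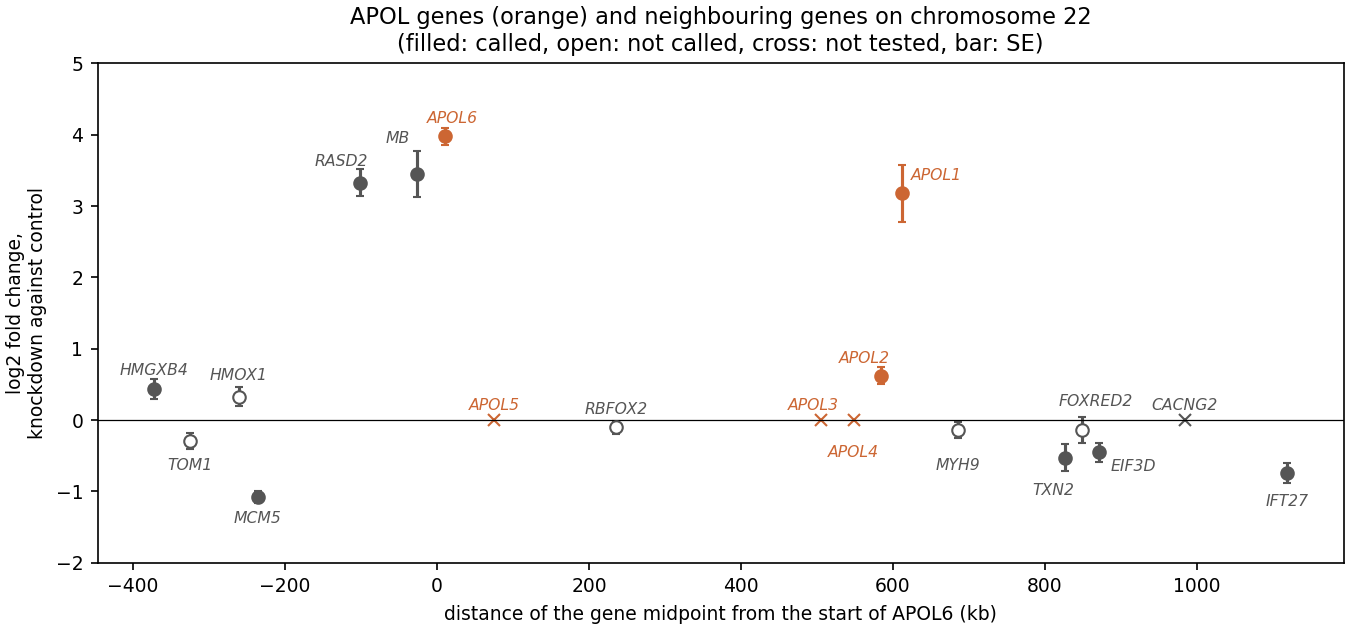
Log2 fold change with its standard error (vertical axis) of the APOL genes (orange) and 13 neighbouring genes (grey) against the distance of the gene midpoint from the start of APOL6 in kb (horizontal axis); filled points were called, open points were not, and crosses on the 0 line mark genes that were not tested. RASD2, MB and APOL6 stand together at 3.33 to 3.98, APOL1 stands at 3.18, and RBFOX2 and MYH9 lie near 0.

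APOLD1, the apolipoprotein L domain protein encoded on chromosome 12, is related to the family but no member of it. It had 150, 126 and 121 counts in the control and 420, 317 and 416 in the knockdown libraries, without overlap. It rose by 1.28 on the log2 scale (SE 0.12, adjusted p = 0.000184, edgeR), from 8.51 ± 0.896 to 20.6 ± 1.12 CPM (SD, n = 3), so the rise lay between those of APOL2 and APOL1. Most other apolipoproteins are carried on lipoprotein particles. Among 20 genes named apolipoprotein or related to them, APOLD1 included, 8 were tested and 37.5% of these were called, against 51.8% of all tested genes: 1 rose (APOLD1) and 2 fell, namely CLU, an extracellular chaperone (log2 fold change -2.35, adjusted p = 5.33e-06), and APOE, a lipid carrier (-1.58, adjusted p = 0.000282), while 9 had 0 counts in every library.

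The APOL genes are known targets of interferon, and other targets were read beside them. All gene lists were chosen with earlier results of these data known, so their shares of calls are given as a description. Of 33 interferon-stimulated effectors, 19 were tested, 16 rose and 0 fell in edgeR (84.2% called, against 51.8% of all tested genes), with a median log2 fold change of 2.40 against 0.0 for all tested genes. The 3 that were tested but not called were ISG15 (log2 fold change -0.21), ISG20 (-0.31) and IFI6 (-0.6). A further 14 were not tested, of which IFI44L and EPSTI1 had 0 counts in every library. Of the 19 tested effectors, 6 passed the filter only through the knockdown libraries, and 53.4% of all such genes were called higher. Among the other 13 there were 10 rises, where 25.3% of all tested genes above the filter in the control libraries were called higher. The log2 fold change of APOL6 (3.98) lay above that of IFIT1, which binds viral RNA (2.70, adjusted p = 8.56e-06), and of IFITM3, which hinders viral entry (2.40, adjusted p = 1e-05), and of DTX3L, a ubiquitin ligase (2.06, adjusted p = 1.41e-05). It lay below that of MX2, an antiviral GTPase that had 12 summed control counts and passed the filter only through the knockdown libraries (6.0, adjusted p = 3.24e-05). Of the 7 guanylate-binding proteins, the partners of APOL3 against bacteria, only GBP2 and GBP3 passed the filter, and again only through the knockdown libraries. GBP3 had 7 summed control counts and 115 knockdown counts (adjusted p = 0.0004) and GBP2 had 3 and 64 (adjusted p = 0.00215, edgeR). GBP1 had 2 summed counts in the control and 4 in the knockdown libraries and was not tested.

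Transcripts of the interferon ligands themselves were scarce in the same libraries. IFNB1, IFNG, IFNK and IFNL3 had 0 counts in all 6 libraries, and TNF had 10 summed control and 18 summed knockdown counts. IFNE, an epithelial type I interferon, had 39 and 115 summed counts, passed the filter only through the knockdown libraries and rose by 1.29 on the log2 scale (SE 0.28, adjusted p = 0.0067, edgeR). IL18, a cytokine that drives interferon gamma release, was the other tested ligand and fell by 0.30 (adjusted p = 0.0188), a call lost in 6 alternatives. Of 25 interferon receptors, signal transducers and their regulators, 21 were tested, 6 rose and 1 fell, with a median of 0.23. The share called, 33.3%, was below the 51.8% of all tested genes. The transcription factors IRF1 (1.02, adjusted p = 0.00166) and IRF5 (2.45, adjusted p = 0.000195) rose, IRF5 having passed the filter only through the knockdown libraries, and the feedback inhibitor SOCS3 fell by 0.96 on the log2 scale (adjusted p = 0.00194). IRF9 and STAT2, which belong to the transcription factor complex of type I interferon, were not called, at -0.03 and -0.07.

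Targets and factors of NF-kB, the pathway through which tumour necrosis factor acts on several APOL genes, held 10 rises and 2 falls among 14 tested of 15 genes (85.7% called, against 51.8% of all), with a median log2 fold change of 0.96. TNFRSF1B, a receptor of tumour necrosis factor, rose by 3.0 (SE 0.15, adjusted p = 1.35e-05), the chemokine CCL2 by 4.06 and TNFAIP2 by 3.09 (adjusted p = 2.54e-06 for both), and the adhesion molecule ICAM1 by 1.42 (SE 0.12, adjusted p = 8.84e-05, edgeR). The falls were in NFKB1, a subunit of the factor (-0.64, adjusted p = 0.00101), and TNFRSF1A, the other receptor of tumour necrosis factor (-0.48, adjusted p = 0.00668, edgeR). RELA, the main activating subunit, was not called (0.01), and TLR3, a receptor for double-stranded RNA, had 0 counts in every library. This list too was chosen with earlier results of these data known.

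**Figure D4:**
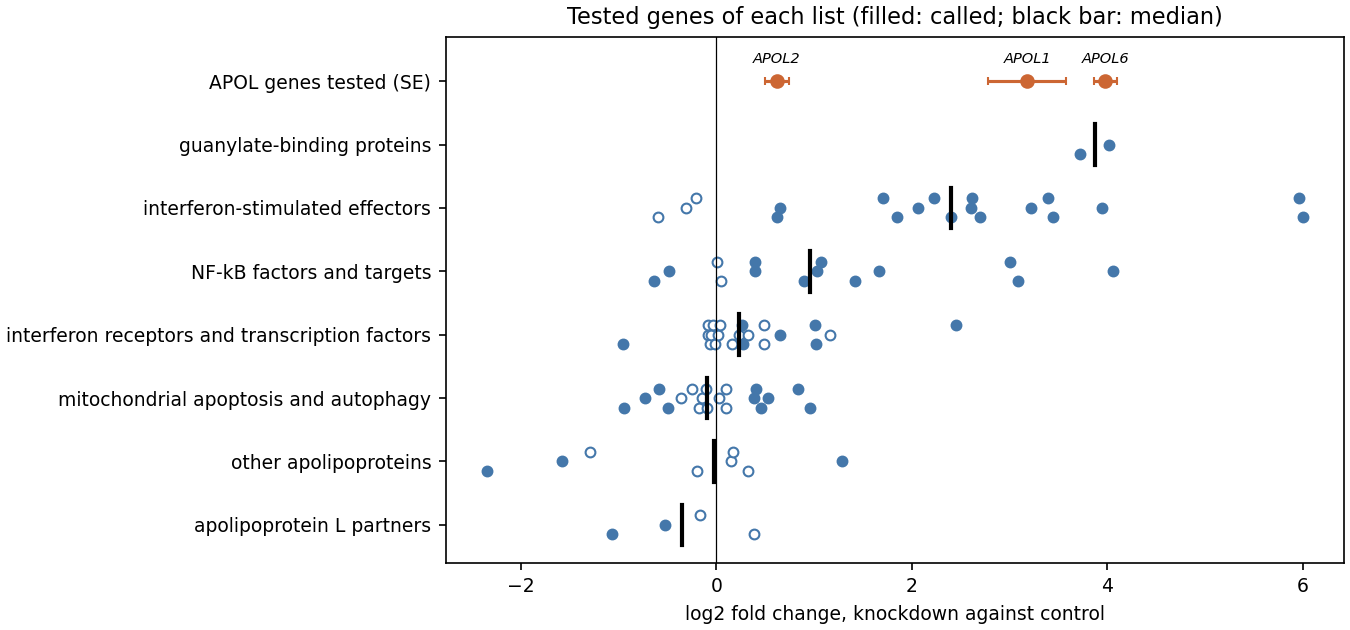
Log2 fold change, knockdown against control (horizontal axis), of the tested genes of 7 lists (rows; filled points called, open points not, black bars the list medians), with the 3 tested APOL genes and their standard errors in the top row. APOL6 at 3.98 and APOL1 at 3.18 lie above the medians of the interferon-stimulated (2.40) and NF-kB (0.96) lists, and APOL2 at 0.62 lies below both.

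Genes tied to what APOL proteins do in the cell were read as well. Of all tested genes, 51.8% were called in either direction and 25.1% were called lower. The 4 tested partners are too few to compare with these shares. Of 5 reported partners of APOL1 and APOL3, 4 were tested, 0 rose and 2 fell in edgeR, with a median of -0.35: NCS1, a calcium sensor at the Golgi, fell by 0.53 on the log2 scale (adjusted p = 0.00268), and the mitochondrial prohibitin PHB2 by 1.07 (adjusted p = 0.00041). Of 19 genes of mitochondrial apoptosis and autophagy, the processes linked to APOL6 and APOL1, all were tested, 6 rose and 4 fell (52.6% called), with a median of -0.10. PMAIP1, a BH3-only protein, rose by 0.83 (adjusted p = 0.00244) and the autophagy enzyme ATG7 fell by 0.73 on the log2 scale (adjusted p = 0.000845, edgeR). The other rises were in BID, BBC3, ATG5, MAP1LC3B and SQSTM1, and the other falls in BCL2, BAK1 and CYCS. Genes of both processes were thus called in either direction. The 10 calls of this list were 5 without control replicate 2.

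Several APOL genes are also known from endothelium and immune cells, so markers of these cells were read. Of 8 immune markers, MS4A1 and LYZ had 0 counts in every library, and PTPRC had 1 summed control and 4 summed knockdown counts. CD14, the list's only tested gene, had 56 and 134 summed counts and rose by 0.99 on the log2 scale (adjusted p = 0.0366, edgeR), and ITGAM had 16 and 49. The summed level of the 8 genes was 1.14 to 2.21 CPM in the control and 3.23 to 3.63 CPM in the knockdown libraries. Of 6 endothelial markers, ERG had 0 counts and PECAM1 had 2 summed counts in each group. The summed endothelial level of 0.441 to 0.668 CPM in the control and 5.86 to 7.25 CPM in the knockdown libraries included KDR, with 12 and 346 summed counts, which made up most of it in the knockdown libraries. The part of these lists in the APOL values was not tested.

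The genes whose profile over the 6 libraries was most like that of APOL6, by the distance between centred log2(CPM + 0.5) values, were TNFSF15 (distance 0.19), BDNF (0.25), CCL2 (0.41), MEST (0.43) and SHISA2 (0.46). With a pseudocount of 2 CPM in place of 0.5 the nearest were COL4A2, LAMA4, LIPG, COL5A2 and COL4A1, and 0 of the 5 names were shared, so the likeness depends on how low control counts are treated. No other APOL gene was among the nearest 5 under either pseudocount.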

How the data were processed

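The members and gene lists were chosen with earlier results of these data known. The authors deposited whole-number read counts and FPKM values per gene, per the file headers. The deposited FPKM values follow from the counts, gene lengths and column totals of the same table. No source used here names the aligner, the counting tool, the build or a strand setting. Libraries were grouped by sample title. Counts were filtered with filterByExpr (minimum count 10), which left 12292 genes, scaled with TMM factors and tested with edgeR 4.0.16 (quasi-likelihood, no covariates) in R 4.3.3, with Benjamini-Hochberg adjustment over all tested genes. Genes with an adjusted p below 0.05 are called. The test was tried on simulated counts with the same spread for all genes and no unlike library. Whether its result carries over to these libraries was not tested. Levels are TMM-scaled CPM. Standard errors (SE) of log2 fold changes come from the edgeR fit, which shares information on spread across genes. They are not computed from a gene's own values alone. The confidence level of intervals is 95% (Clopper-Pearson), and a count of 0 allows 3 counts.

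Named genes were the members, SHMT2, up to 4 called genes of smallest p per list (or the 2 of highest mean), the neighbours and the 5 genes nearest APOL6. Neighbours beyond MB and MYH9 and other genes named for low or absent counts, for a fall or for lack of a call were chosen after their values were seen. Alternatives were other scaling factors, filters and tests (DESeq2 1.42.0, limma 3.58.1), a replicate block and left-out libraries. Some genes that this rule selects are not reported here.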

Additional observations from a re-analysis of the deposited data

How the results depend on the processing

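APOL6, APOL2 and APOL1 were higher and called in each of the 16 alternatives. Their log2 fold changes ran from 3.93 to 4.06, from 0.56 to 0.71 and from 2.71 to 3.64, apart from limma on log2(FPKM + 1), whose pseudocount gave 2.09, 0.60 and 0.82. The alternatives reuse the libraries on which the family was chosen. APOL1 passed the main filter only through its knockdown libraries. The calls of these members are therefore a description and no separate support. Library size alone moved the median of all tested genes to 0.09. Same-numbered libraries of the groups were not treated as paired, and the labels do not say whether they were. Their deviations from the group means correlated at -0.36, -0.34 and 0.37. Those of the unlike libraries, control replicate 1 and knockdown replicate 2, correlated at 0.49. With 3 libraries per group these values cannot decide on pairing. With the replicate number as a block APOL6 was at 3.98, APOL2 at 0.62 and APOL1 at 3.21, while the 2 called interferon and TNF ligands became 1. That count was also 1 with library size alone, and 1 to 2 with a library left out. Without control replicate 1 and knockdown replicate 2 together, 11 neighbours were called in place of 7, 4 partners in place of 2, 11 interferon receptors and factors in place of 7 and 5 other apolipoproteins in place of 3. Calls over all genes rose there too, to 4576 higher and 4559 lower of 12415 tested, from 3284 and 3088 of 12292. With a single library left out, 4 to 10 neighbours and 5 to 11 apoptosis and autophagy genes were called. Of the 5 genes nearest APOL6, 0 were shared with a pseudocount of 2 CPM. The planned count of promoter motifs, with its shorter window, was not run. Depth limits APOL1 and APOL3 in control libraries and APOL4 and APOL5 in all.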
